A study of Mus musculus with 12 samples.

Results

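The response of the liver to a 2 h stimulation with dexamethasone (DEX), a synthetic glucocorticoid (GC), was read from 6 of the 12 liver RNAseq libraries of the series, those of mice that received no iron, over all genes counted. The 3 NaCl/DEX mice were compared with the 3 NaCl/PBS mice. All 6 were female C57BL/6J mice aged 8 to 12 weeks that first received an injection of saline (NaCl) into the peritoneal cavity. After 6 h, the NaCl/DEX mice received 10 mg/kg DEX and the NaCl/PBS mice phosphate buffered saline (PBS) by the same route, and the livers were taken 2 h later, 8 h after the first injection. The other 6 mice (FeSO4/PBS and FeSO4/DEX) had received 300 mg/kg FeSO4 in place of NaCl. They share in the estimate of the spread and enter 1 comparison, placed last. None of these mice was adrenalectomized, so the PBS mice kept their own adrenal GCs. Each library is the whole liver RNA of 1 mouse, with no sorting of cells.

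GCs act through the glucocorticoid receptor (GR, encoded by Nr3c1), a ligand-activated transcription factor that waits in the cytoplasm in a complex with heat shock proteins and moves to the nucleus when it binds its hormone. On DNA, GR dimers bind glucocorticoid response elements, which hold a short motif and its inverted repeat, and the receptor can also be recruited by other factors such as AP-1 and NF-kB at inflammatory genes. In the liver, GR is known for driving gluconeogenesis, amino acid breakdown and lipid handling, for acting on the circadian clock, and for restraining inflammation.

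The counts on genes summed to between 18528171 and 23827340 reads in the NaCl/PBS libraries and to between 17886556 and 19909255 in the NaCl/DEX libraries. Hepatocyte markers matched the label of the tissue, and all 10 could be tested. Their summed level lay between 115750 and 135040 CPM in PBS mice and between 140100 and 156480 CPM in DEX mice, with no overlap. The markers of pancreatic acinar cells, from an organ next to the liver and of which 2 were testable, summed to between 6.83 and 9.78 CPM over both groups. In a principal component analysis, the first component held 63.8% of the variance and separated the 3 DEX mice from the 3 PBS mice. Of the control mice, NaCl/PBS mouse 2 stood nearest to the DEX mice on this component, at -28.7 against -35.6 and -34.2. Among the genes higher after DEX, this mouse had the highest PBS value of 54.1%, compared with 35.9% of all tested genes. Several stress and inflammatory genes were also high in this mouse, and LFCs without it are given below for several of them.

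Within this model of 13857 testable genes, 901 were higher after DEX (6.50% of the genes tested) and 991 were lower (7.15%), at an edgeR false discovery rate (FDR) of 0.05 or less. Here and below, "rose" and "fell" are used of genes that passed this test, and LFC is the log2 fold change of NaCl/DEX over NaCl/PBS. With an LFC beyond 1 in addition, 411 genes were higher (2.97%) and 473 lower (3.41%). All 3 DEX mice lay above all 3 PBS mice for 2435 genes (17.6%) and below them for 2816 (20.3%). Scaling by library size alone in place of TMM moved the median LFC of all tested genes from -0.02 to -0.18 and the calls to 618 higher and 1776 lower, so that 25.8% of the calls were higher, compared with 47.6%. The number of genes called lower also fell to 578 without NaCl/PBS mouse 3, 581 without NaCl/PBS mouse 1, 593 without NaCl/DEX mouse 3 and 646 without NaCl/DEX mouse 1.

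Of a list of 30 well-known GR target genes, 22 rose (73.3%, beside 6.50% of all tested genes) and 0 fell. Of the 22, 20 had an LFC above 1, and the median LFC of the list was 1.47, beside -0.02 for all tested genes. Without NaCl/PBS mouse 2, 23 rose and the median was 1.89. This list and those below were chosen with earlier results of these data known, and their shares have no test of their own. Of 20 genes described whatever their values, 13 rose, 0 fell and 7 did not pass the test. Values below are normalized read counts, scaled for depth with TMM factors and listed for mice 1, 2 and 3 of each group, and they compare mice for 1 gene, not genes with each other.

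Fkbp5 (chr17:28618058-28737521, GRCm39, minus strand), an immunophilin that dampens GR activity, had 1341, 3654 and 1481 after PBS and 9723, 10944 and 9940.4 after DEX (LFC 2.24, SE 0.29, edgeR FDR 0.000143). The groups did not overlap, and NaCl/PBS mouse 2 had more than the other PBS mice. Without it the LFC was 2.87. Tsc22d3 (chrX:139440091-139501408, minus strand), which encodes the anti-inflammatory protein GILZ, had 995, 1136 and 1699 after PBS and 4330.2, 3823 and 4089.7 after DEX (LFC 1.68, SE 0.17, edgeR FDR 2.16e-05), with no overlap. Tat (chr8:110717063-110726435, plus strand), the enzyme that starts tyrosine breakdown, had 17656, 19125 and 22702 after PBS and 103190, 87816 and 87952 after DEX (LFC 2.23, SE 0.19, edgeR FDR 5.35e-06). It was already abundant without DEX and the 3 DEX mice lay far above the spread of the PBS mice.

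Sgk1, a kinase of ion transport and cell survival, had 367, 445 and 591 after PBS and 2029, 2112 and 2250.2 after DEX (LFC 2.19, SE 0.23, edgeR FDR 2.81e-05). Dusp1, a phosphatase that switches off MAP kinases, had 215, 738 and 459 after PBS and 1681, 1974 and 1699.5 after DEX (LFC 1.93, SE 0.31, edgeR FDR 0.000766). Both groups of values stood apart, although Dusp1 differed more than 3-fold among the PBS mice. Igfbp1, a liver protein that binds insulin-like growth factors, had 616, 3095 and 1216 after PBS and 8278, 8875 and 8229.8 after DEX (LFC 2.37, SE 0.41, edgeR FDR 0.00149), and its LFC was 3.22 without NaCl/PBS mouse 2. Mt2, a metal-binding metallothionein, had 2269, 11227 and 4848 after PBS and 15648, 15359 and 19322 after DEX (LFC 1.46, SE 0.39, edgeR FDR 0.0229). For Mt2 the same PBS mouse was high, and the LFC was 2.25 without it, whereas it did not pass when NaCl/PBS mouse 3 (edgeR FDR 0.097) or NaCl/DEX mouse 3 (0.0774) was left out. In GENCODE vM39, 82.4% of the exon bases of Mt2 overlap another annotated gene, so its count is uncertain.

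Smaller rises were seen for Nfkbia, the inhibitor that holds NF-kB in the cytoplasm, with 667, 946 and 633 after PBS and 1658, 1544 and 1645 after DEX (LFC 1.11, SE 0.16, edgeR FDR 0.000332), and for Cebpd, a transcription factor of the C/EBP family, with 56.1, 199 and 94.8 after PBS and 319, 348 and 302 after DEX (LFC 1.49, SE 0.31, edgeR FDR 0.00467, and LFC 2.12 without NaCl/PBS mouse 2). Zbtb16, a zinc finger transcriptional repressor, went from 739, 1351 and 499 to 2093, 1737 and 1429 (LFC 1.02, SE 0.30, edgeR FDR 0.0359), and Angptl4, a secreted inhibitor of lipoprotein lipase, from 1264, 1839 and 1423 to 2163, 3656 and 2963 (LFC 0.96, SE 0.25, edgeR FDR 0.0211). The last pair was the least firm: each lost its call when any of 4 single mice was left out, with edgeR FDRs of up to 0.13 for Zbtb16 and 0.0933 for Angptl4.

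**Figure D1:**
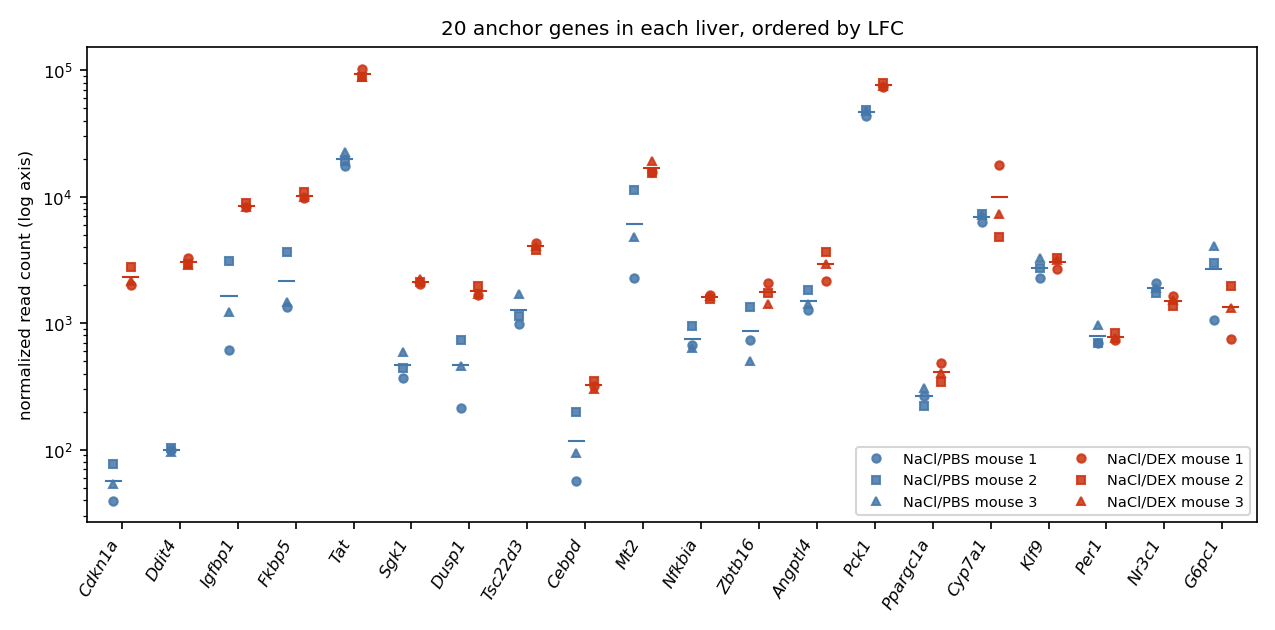
Normalized read counts (log axis) of the 20 genes described whatever their values, with a symbol per mouse and a short line at the mean of each group, NaCl/PBS in blue and NaCl/DEX in red. From Cdkn1a to Angptl4 the red points lie above the blue ones, and the squares of NaCl/PBS mouse 2 sit high for Igfbp1, Fkbp5, Cebpd and Mt2.

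The 7 genes that did not pass the test were Pck1, G6pc1, Ppargc1a, Klf9, Per1, Nr3c1 and Cyp7a1. Pck1, the rate-limiting enzyme of gluconeogenesis, had 43527, 48206 and 47515 after PBS and 74106, 79165 and 75434 after DEX (LFC 0.72, SE 0.39, edgeR FDR 0.261). Its groups did not overlap, and in a fit of the 6 NaCl libraries alone the LFC was 0.73 with an edgeR FDR of 0.00131. Ppargc1a, a coactivator of the fasting response, behaved alike, with 264, 219.74 and 308 after PBS and 483, 341 and 407 after DEX (edgeR FDR 0.408, and 0.0154 in the 6 libraries alone). Nr3c1, the receptor itself, had 2097, 1727 and 1912 after PBS and 1646, 1368 and 1518 after DEX (LFC -0.34, SE 0.15, edgeR FDR 0.149), with all DEX mice below all PBS mice and an edgeR FDR of 0.0494 in the 6 libraries alone. The fit of 6 libraries has its own filter and scaling as well as its own spread. With all 12 libraries, Pck1 and Ppargc1a also passed without a filter on low counts (edgeR FDR 1.83e-05 and 0.00124) and Nr3c1 with library size alone as the scaling (0.0436).

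G6pc1, which releases free glucose from the liver, had 1057, 2998 and 4062 after PBS and 745, 1969 and 1321 after DEX (LFC -1.01, SE 0.43, edgeR FDR 0.148), and the groups overlapped. Its LFC was -0.58 without NaCl/PBS mouse 3 and -1.38 without NaCl/PBS mouse 1, where it passed (edgeR FDR 0.031). Per1, a core clock repressor, had 696, 698 and 967 after PBS and 735, 835 and 759 after DEX (LFC -0.02, SE 0.17), and Klf9, a Krüppel-like factor, 2299, 2715 and 3255 after PBS and 2704, 3303 and 3187 after DEX (LFC 0.15, SE 0.23). Neither LFC was larger than its SE. Cyp7a1, the rate-limiting enzyme of bile acid synthesis, had 6284, 7359.9 and 7236 after PBS and 17870, 4804 and 7276 after DEX (LFC 0.52, SE 0.38), where only NaCl/DEX mouse 1 lay above the PBS mice and the LFC was -0.20 without it.

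Promoters were searched for a palindromic glucocorticoid response element, since GR binds such elements. The consensus used was GNACANNNTGTNC, GNACA, 3 free bases and its inverted repeat, which reads the same on both strands. In the window from 1000 bases before to 50 after the annotated gene start on GRCm39, 1.77% of 13817 promoters of tested genes held it (245 promoters), 4.12% of those of genes that rose (37 of 899), 1.72% of those of genes that fell (17 of 987) and 1.6% of the others. Among the genes named by the rules given under data processing, 5 of 61 that rose (8.2%) and 1 of 41 that fell (2.44%) held it. They were Fkbp5, Lcn2, Map3k6, Mt2 and Orm3, which rose, and Irf1, which fell. Most named genes that rose thus had no match in this window. The 4 elements that lie, with the 20 bases on either side, upstream of the start and away from annotated exons are printed 5′ to 3′ on the strand of the gene, because these genes rose, with the element in capitals. They lie 491 bases before the start of Fkbp5 (chr17:28737986-28738038, minus strand), 31 before that of Lcn2 (chr2:32278269-32278321, minus strand), 137 before that of Map3k6 (chr4:132967928-132967980, plus strand) and 381 before that of Orm3 (chr4:63273801-63273853, plus strand).
Fkbp5: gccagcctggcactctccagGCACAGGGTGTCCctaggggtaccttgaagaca
Lcn2: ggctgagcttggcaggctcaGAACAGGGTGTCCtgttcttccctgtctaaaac
Map3k6: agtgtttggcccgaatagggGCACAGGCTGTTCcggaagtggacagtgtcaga
Orm3: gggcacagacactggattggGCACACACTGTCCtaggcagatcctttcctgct
A match is a description of the sequence and does not show that GR was bound there, and elements further away were not searched.

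Among genes with a mean of at least 100 normalized counts in the higher group, Rik and Gm genes aside, the largest fitted rise was that of Fam107a (chr14:14151750-14173507, plus strand), an actin-associated protein known as a GC-induced gene in brain. It had 0, 1.87 and 4.23 after PBS and 1149.6, 1156 and 948 after DEX (LFC 9.04, SE 0.41, edgeR FDR 2.07e-08). It was almost undetected in the PBS livers, with 7 reads over the 3 mice compared with 3242 after DEX, a ratio of 564 (interval 274 to 1405), so the size of its LFC is uncertain. Greb1 (chr12:16720616-16851015, minus strand), known as an estrogen-induced gene, had 0, 3 and 0 reads in the PBS mice and 177, 62 and 62 in the DEX mice, a ratio of 122 (interval 41.4 to 596). Both intervals are exact, at the 95% level, for depth-scaled sums of reads, and cover counting error only. NaCl/DEX mouse 1 had the most Greb1, and the groups did not overlap, as the choice of the gene required.

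Cdkn1a (chr17:29309936-29319701, plus strand), the cell cycle inhibitor p21, had 39.6, 77.6 and 53.3 after PBS and 2020.2, 2765 and 2146 after DEX (LFC 5.36, SE 0.22, edgeR FDR 9.71e-09). Ddit4 (chr10:59785491-59788492, minus strand), an inhibitor of mTORC1 known as REDD1, had 99.3, 104 and 95.6 after PBS and 3251, 2921 and 2911 after DEX (LFC 4.93, SE 0.25, edgeR FDR 3.65e-08). For both, the spread within a group was small beside the difference. Cyp2b10 (chr7:25597045-25626049, plus strand), a drug-metabolizing cytochrome P450 induced through the receptor CAR, went from 347, 303 and 286 to 9044, 7153 and 8212 (LFC 4.70, SE 0.26, edgeR FDR 9.44e-08). Reads of Cyp2b10 may be shared with its close relatives of the Cyp2b family.

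Gadd45b, a stress-induced regulator of MAP kinase signalling and growth arrest, had 48.2, 84.2 and 41.5 after PBS and 1181, 1156 and 1163 after DEX (LFC 4.34, SE 0.52, edgeR FDR 8.22e-05). Phf11c went from 95.7, 140.26 and 96.5 to 2687, 2386 and 2279 (LFC 4.47, edgeR FDR 7.42e-05), and Mdm1 from 24.5, 50.5 and 27.9 to 806, 448 and 352 (LFC 3.98, edgeR FDR 2.98e-05). The DEX mice were uniform for Gadd45b and Phf11c, and mouse 1 was the highest for Mdm1. Serpina4-ps1, annotated as a pseudogene by its name, ranged from 20.1 to 322 in PBS mice and from 507 to 5804 in DEX mice (LFC 4.46, and 6.25 without NaCl/PBS mouse 2). Mouse 2 was the highest in both groups, and pseudogene reads can belong to related genes.

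Of 25 genes for the receptor, its chaperones, coregulators and steroid-converting enzymes, 4 rose (16%, beside 6.50% of all tested genes) and 0 fell, and the median LFC was 0.04. The 4 were Ep300, a histone acetyltransferase coactivator, from 611, 695 and 703 to 1476, 1270.2 and 1294 (LFC 1.01, edgeR FDR 0.000579), Dnaja1, a co-chaperone of Hsp70 (LFC 0.93), Sra1, a steroid receptor coactivator (LFC 0.84), and Hspa8, the constitutive Hsp70 (LFC 0.57). Of the exon bases of Dnaja1, 78.8% overlap another annotated gene. Hsd11b1, which regenerates active GCs inside hepatocytes, had an LFC of 0.04.

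Of 36 genes of gluconeogenesis and glucose handling, 10 rose (27.8%, beside 6.50% of all tested genes) and 0 fell, with a median LFC of 0.28. Ppp1r3c, a subunit that targets protein phosphatase 1 to glycogen, had 470.4, 448 and 632 after PBS and 2986, 3121 and 2432 after DEX (LFC 2.46, SE 0.49, edgeR FDR 0.0039), and its relative Ppp1r3b went from 2920.2, 3601 and 4305 to 10986, 6710.4 and 9698 (LFC 1.34, edgeR FDR 0.00885). Pfkfb3, which makes the glycolytic activator fructose 2,6-bisphosphate, had 224, 241 and 273 after PBS and 799.7, 1277 and 1131 after DEX (LFC 2.12, SE 0.21, edgeR FDR 1.87e-05). All 3 DEX mice exceeded all PBS mice for these genes, as the choice of the genes required.

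The glucose transporters Slc2a3 (LFC 1.39) and Slc2a1 (LFC 1.16) and the transcription factors Foxo1 (648 ± 52.3 in NaCl/PBS and 1500.2 ± 18.4 in NaCl/DEX mice, SD over n = 3, LFC 1.21) and Foxo3 (LFC 1.06) rose as well, and so did Pgm2 and Pcx with an LFC of 0.59 and 0.50. Fbp1, Pck2 and Slc2a2, by contrast, had LFCs of 0.01, -0.05 and 0.06. In the 6 NaCl libraries alone, 16 of the list rose and 1 fell. Pdk4, a brake on pyruvate dehydrogenase, did not pass (LFC 1.31, edgeR FDR 0.328) although its groups did not overlap.

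Of 43 amino acid breakdown and urea cycle genes, 11 rose (25.6%, beside 6.50% of all tested genes) and 1 fell (2.33%, beside 7.15%). The median LFC was 0.14. Beside Tat, Slc38a2, a neutral amino acid transporter, had 2155, 3673 and 2924 after PBS and 11539, 11176 and 11491 after DEX (LFC 1.97, SE 0.17, edgeR FDR 5.17e-06), and Sds, serine dehydratase, 3421, 3522 and 5896 after PBS and 10678, 11175 and 10755 after DEX (LFC 1.34, SE 0.28, edgeR FDR 0.00581). NaCl/PBS mouse 3 was the highest PBS mouse for Sds, still below all DEX mice, as the choice of the gene required. Got1 (1.34), Sdsl (1.25), Tdo2 (1.24), Aass (1.18), Gpt2 (0.73), Asl (0.63), Glul (0.49) and Cdo1 (0.48) rose by the LFC in parentheses. Nags, which makes the activator of the urea cycle's first step, went from 1122, 1006 and 1193 to 741, 669 and 803 (LFC -0.59, edgeR FDR 0.0143). The urea cycle enzymes Cps1, Otc and Arg1 had LFCs of 0.32, 0.04 and 0.07 and did not pass.

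Insulin and growth hormone signalling genes split into both directions. Of 29, 4 rose (13.8%, beside 6.50% of all tested genes) and 5 fell (17.2%, beside 7.15%), with a median LFC of 0.01. Irs2, an insulin receptor substrate of the liver, had 497, 745 and 402 after PBS and 143, 279 and 117 after DEX (LFC -1.60, SE 0.41, edgeR FDR 0.0178), and Irs1 299, 195 and 419.83 after PBS and 96.6, 176 and 124 after DEX (LFC -1.20, SE 0.31, edgeR FDR 0.0181). Irs2 no longer passed without NaCl/PBS mouse 2 (LFC -1.31, edgeR FDR 0.0696). Stat5a, a transcription factor of growth hormone signalling, went from 224, 232 and 173 to 76.2, 120.35 and 129.88 (LFC -0.94). On the other side, Lepr, the leptin receptor, rose by an LFC of 1.28. The genes called lower were between 1 and 4 when any single mouse was left out, with 1 without NaCl/DEX mouse 1 or mouse 3 and 2 without any of the 3 PBS mice.

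Of 41 genes of fatty acid oxidation, lipolysis and lipid droplets, 13 rose (31.7%, beside 6.50% of all tested genes). The 3 that fell were 7.32%, close to the 7.15% of all tested genes, and the median LFC was 0.25. Plin4, a lipid droplet coat protein, had 19.4, 100.05 and 37.2 after PBS and 909, 1222 and 1159.9 after DEX (LFC 4.43, SE 0.56, edgeR FDR 0.000112, and LFC 5.30 without NaCl/PBS mouse 2), and 39.1% of its exon bases overlap another gene. Plin5, a coat protein that ties droplets to mitochondria, had 331, 641 and 431 after PBS and 4022, 4927 and 4715 after DEX (LFC 3.29, SE 0.20, edgeR FDR 2.37e-07). Lpin1, a phosphatidate phosphatase and nuclear coactivator, had 3576, 6313 and 4968 after PBS and 26474, 27867 and 27862 after DEX (LFC 2.47, SE 0.21, edgeR FDR 5.81e-06). In all 3 the DEX mice were close together and NaCl/PBS mouse 2 was the highest control.

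G0s2, an inhibitor of the lipase ATGL, had 479.75, 768 and 526 after PBS and 47.2, 177 and 125 after DEX (LFC -2.33, SE 0.47, edgeR FDR 0.00397), and Pnpla2, which encodes ATGL, rose by an LFC of 0.74. Lipe, hormone-sensitive lipase, went from 374, 386 and 311 to 166, 105 and 141 (LFC -1.38, edgeR FDR 0.000466). Plin2, the common droplet coat, had 4195, 5212 and 4048 after PBS and 1979, 3398 and 3344 after DEX (LFC -0.63, SE 0.20, edgeR FDR 0.0498) and did not pass without NaCl/PBS mouse 2 or in the 6 libraries alone (edgeR FDR 0.178 and 0.0561). The beta-oxidation genes Acadm and Cpt1a had small LFCs of 0.08 and -0.09. The number that rose was 7 without NaCl/DEX mouse 3 or NaCl/PBS mouse 3 and 8 without NaCl/PBS mouse 1.

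Of 39 lipogenesis and cholesterol genes, 5 rose (12.8%, beside 6.50% of all tested genes) and 3 fell (7.69%, beside 7.15%), with a median LFC of 0.13. With library size alone as the scaling, 2 rose and 5 fell. Insig2, which retains the SREBP complex in the endoplasmic reticulum, had 1557, 1235 and 1809 after PBS and 10682, 12361 and 9235 after DEX (LFC 2.81, SE 0.19, edgeR FDR 6.84e-07), and Srebf1, the lipogenic SREBP itself, 5519.7, 3732 and 5196 after PBS and 2574, 1863 and 2054 after DEX (LFC -1.15, SE 0.19, edgeR FDR 0.000777). These moved in opposite directions, and neither overlapped between groups, as the choice of the genes required. Thrsp, a lipogenic protein known as Spot 14, had 5643, 5821 and 8283 after PBS and 33335, 28428 and 38020 after DEX (LFC 2.34, SE 0.30, edgeR FDR 0.000121). Apoa5, an apolipoprotein that lowers triglycerides, went from 21165, 25119 and 20155 to 9366, 12951 and 10240 (LFC -1.03). Abcg1, a cholesterol exporter, fell by 0.75 on the log2 scale and lost its call without NaCl/PBS mouse 2 (edgeR FDR 0.0655). Fasn, Acaca and Scd1 had LFCs of 0.06, -0.07 and 0.41 and did not pass. The number that rose was 2 without NaCl/DEX mouse 3, NaCl/PBS mouse 2 or NaCl/PBS mouse 3 and 3 without NaCl/DEX mouse 1 or NaCl/PBS mouse 1.

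In bile acid synthesis and transport, 2 of 23 tested genes rose and 2 fell, with a median LFC of 0.04. Each count is 8.70% of the list, close to the 6.50% and 7.15% of all tested genes. Slc10a2, the apical sodium-dependent bile acid transporter, had 662, 529 and 490.09 after PBS and 2744, 2371 and 3745 after DEX (LFC 2.40, SE 0.27, edgeR FDR 5.49e-05), and Cyp27a1, of the alternative synthesis pathway, 7788, 8510.1 and 8266 after PBS and 13416, 13877 and 14534 after DEX (LFC 0.77, SE 0.11, edgeR FDR 0.00034). Hsd3b7 (LFC -0.92) and Fgfr4, the liver receptor for the intestinal hormone FGF15 (LFC -0.37), fell, and Fgfr4 lost its call without NaCl/PBS mouse 2 (edgeR FDR 0.118). Each of the 6 fits that left out a mouse called 1 gene of the list lower. The exons of Hsd3b7 overlap another gene over 98.8% of their bases and those of Cyp27a1 over 32.8%.

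**Figure D2:**
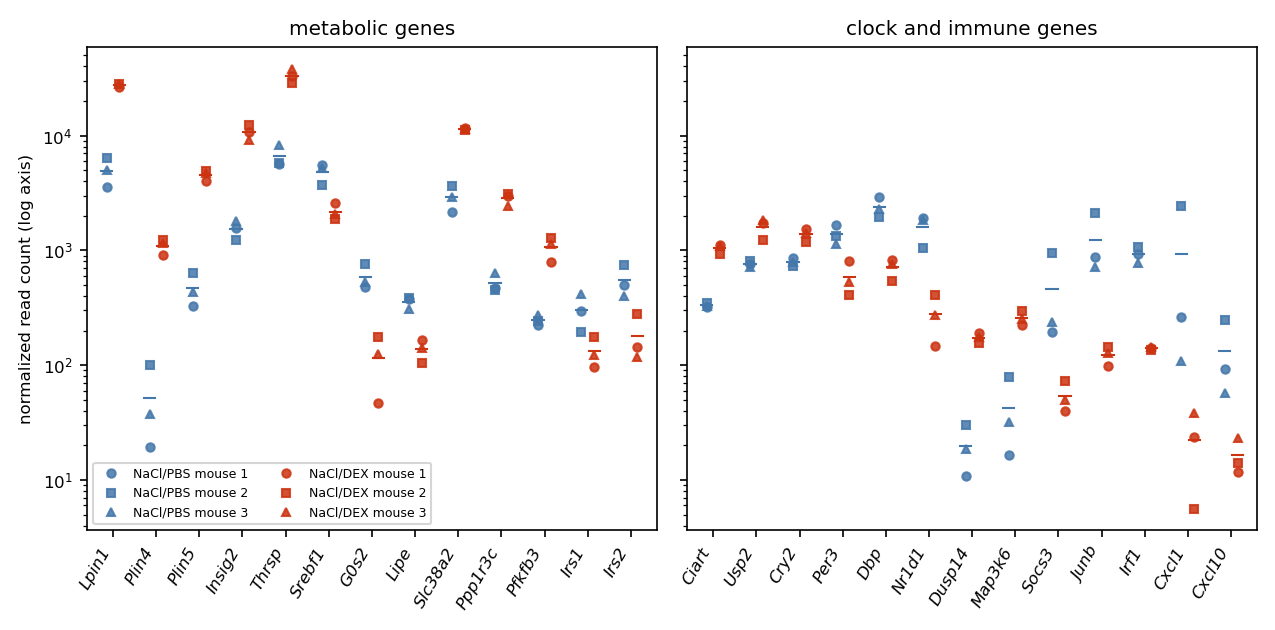
Normalized read counts (log axis) of 13 metabolic genes (left) and 13 clock and immune genes (right), with a symbol per mouse and a short line at the mean of each group. NaCl/DEX values in red lie apart from NaCl/PBS values in blue for each gene shown, as the choice of the genes required, and NaCl/PBS mouse 2 (square) is far above the other PBS mice for Socs3, Junb and Cxcl1.

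Of 29 tested clock and clock output genes, 4 rose (13.8%, beside 6.50% of all tested genes) and 6 fell (20.7%, beside 7.15%). All 6 fell by an LFC below -1, and the median LFC was -0.23. Nr1d1 (chr11:98658752-98666188, minus strand), the repressor REV-ERB alpha, had 1900.3, 1058 and 1854 after PBS and 148, 412 and 272 after DEX (LFC -2.53, SE 0.35, edgeR FDR 0.000258). Of its exon bases, 52.3% overlap another annotated gene. Dbp, a clock output transcription factor, had 2914, 1966 and 2309.9 after PBS and 828, 541 and 762 after DEX (LFC -1.76, SE 0.28, edgeR FDR 0.000797), and Per3 went from 1651, 1340 and 1139 to 815, 406 and 529.59 (LFC -1.24, edgeR FDR 0.0111). The repressors Bhlhe41 (LFC -3.05) and Bhlhe40 (LFC -1.12), named here after their values were seen, also fell.

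Ciart, a repressor of CLOCK and BMAL1, had 322, 347 and 327 after PBS and 1122, 923 and 1091 after DEX (LFC 1.66, SE 0.19, edgeR FDR 5.44e-05). Usp2, a deubiquitinase under clock control, went from 754, 801 and 715 to 1741, 1229 and 1826 (LFC 1.08), the repressor Cry2 from 859.53, 731 and 788 to 1525, 1174 and 1426 (LFC 0.79), and the clock kinase Csnk1d rose by 0.45. Cry2 lost its call without NaCl/PBS mouse 2 (edgeR FDR 0.0677), and the number that rose was 1 without NaCl/DEX mouse 1 and 2 without NaCl/DEX mouse 3 or NaCl/PBS mouse 3. Per1, Per2, Bmal1 and Clock, which belong to the core loop as Cry2 does, had LFCs of -0.02, -0.55, -0.43 and 0.39 and did not pass. The 2 groups were killed at the same 8 h after the first injection by design, and the time of day is not in the sources used here.

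A list of transcription factors held the KLF, C/EBP, FOX and HNF families and others, among them ID, HES, GATA, T-box and ETS factors. Of its 56 tested members, 12 rose (21.4%, beside 6.50% of all tested genes). Another 13 fell (23.2%, beside 7.15%), and the median LFC was -0.12. Id2, an inhibitor of helix-loop-helix factors, had 1538, 2656 and 1354 after PBS and 236, 228 and 286 after DEX (LFC -2.88, SE 0.24, edgeR FDR 3.43e-06), and Id3 went from 529, 874 and 490.09 to 166, 182 and 138 (LFC -1.96). Id4 fell further but from a lower level (43.5 ± 9.11 in NaCl/PBS and 4.27 ± 2 in NaCl/DEX mice, SD over n = 3). Id1 did not pass (LFC -0.44), so that 3 of the 4 inhibitors of this family fell. Tbx3, a T-box factor of pericentral hepatocytes, had 444, 727 and 589.97 after PBS and 113, 120.35 and 63.4 after DEX (LFC -2.57, SE 0.26, edgeR FDR 2.36e-05). The other falls included Gata4 (-1.72), Hes1 (-1.48), Prox1 (-0.91) and Cebpa (-0.54), given as LFCs.

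Cebpb, a partner of GR in the liver, had 955, 1366 and 1064 after PBS and 2685, 2789.6 and 2828 after DEX (LFC 1.29, SE 0.16, edgeR FDR 0.00012), and Grhl1 went from 30.2, 26.2 and 21.2 to 95.5, 113 and 111 (LFC 2.03). Cebpb and Cebpd thus rose while Cebpa fell. Ebf3 was called at a low level, with no read in any PBS mouse and 8.79 ± 7.24 normalized reads (SD, n = 3) after DEX. Hnf4a, the main hepatocyte factor, had an LFC of only 0.37, which lost its call without NaCl/PBS mouse 2 (edgeR FDR 0.0834). No Krüppel-like factor other than Klf2 (LFC 0.99) and Klf10 (LFC -1.83) passed the test, among 12 tested.

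Among 41 tested nuclear receptors, 4 rose (9.76%, beside 6.50% of all tested genes) and 7 fell (17.1%, beside 7.15%), with a median LFC of -0.13. The retinoic acid receptors Rarg and Rara went from 242, 218 and 246 to 75.1, 58.3 and 60.4 (LFC -1.87, SE 0.22, edgeR FDR 7.22e-05) and from 382, 472 and 386 to 137, 177 and 159 (LFC -1.39), while Rarb did not pass (LFC -0.30). Nr1i2, the xenobiotic receptor PXR, had 1259, 1368 and 1323 after PBS and 2109, 2165 and 2308 after DEX (LFC 0.74, SE 0.10, edgeR FDR 0.000303), whereas Nr1i3, its relative CAR, fell by 0.96 on the log2 scale. Ppard rose by an LFC of 1.00, and Vdr, the vitamin D receptor, rose at a low level (2.56 ± 1.95 in NaCl/PBS and 24.7 ± 3.95 in NaCl/DEX mice). The number that rose was 2 without NaCl/DEX mouse 1 or NaCl/PBS mouse 1.

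Immediate-early and stress factors also went both ways. Of 43 tested, 8 rose (18.6%, beside 6.50% of all tested genes), all with an LFC above 1. Another 6 fell (14%, beside 7.15%), and the median LFC was 0.08. Junb (chr8:85701113-85705359, minus strand), an AP-1 subunit, had 872, 2096 and 713 after PBS and 98.8, 144 and 128 after DEX (LFC -3.31, SE 0.36, edgeR FDR 4.11e-05), and its LFC was -2.67 without NaCl/PBS mouse 2. Another AP-1 subunit, Jun, went the other way (234 ± 158 in NaCl/PBS and 798 ± 135 in NaCl/DEX mice, LFC 1.78). Maff, a small MAF factor, had 116, 126 and 105 after PBS and 639, 589 and 912 after DEX (LFC 2.62, SE 0.29, edgeR FDR 4.04e-05). Fos, Fosb and Atf3 had LFCs of -0.31, -0.71 and 0.38 and did not pass.

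The 3 GADD45 genes, which respond to stress and DNA damage, did not move together. Gadd45g had 52.5, 625 and 179 after PBS and 3347, 2976 and 2904 after DEX (LFC 3.44, SE 0.60, edgeR FDR 0.00142), and its LFC was 4.76 without NaCl/PBS mouse 2, which had the most of the PBS mice. Gadd45b rose as described above. Gadd45a had 127, 189 and 60.9 after PBS and 41.9, 32.9 and 46.3 after DEX (LFC -1.63, SE 0.33, edgeR FDR 0.00423), and 55.8% of its exon bases overlap another gene. Ier5, an immediate-early gene, went from 112, 151 and 149 to 34.4, 39.5 and 37.3 (LFC -1.88).

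Of 64 genes of inflammatory signalling and its inhibitors, 18 rose (28.1%, beside 6.50% of all tested genes) and 12 fell (18.75%, beside 7.15%). The median LFC was -0.17 (0.02 without NaCl/PBS mouse 2). With library size alone as the scaling, 17 rose and 19 fell. Dusp14, a MAP kinase phosphatase, had 10.8, 29.9 and 18.6 after PBS and 191, 155 and 174 after DEX (LFC 3.15, SE 0.36, edgeR FDR 5.03e-05). Its relatives Dusp1, Dusp8 (LFC 2.82) and Dusp4 (LFC 1.91) rose and Dusp10 fell (LFC -1.33). Map3k6, a stress kinase, had 16.5, 78.5 and 32.2 after PBS and 223, 295 and 253 after DEX (LFC 2.64, SE 0.34, edgeR FDR 0.000133, and LFC 3.43 without NaCl/PBS mouse 2). Decoys and brakes that rose were Il1rn, the interleukin-1 receptor antagonist (LFC 1.26), and Zfp36, an mRNA decay factor for cytokine transcripts (LFC 0.67), while the signalling receptors Il1r1 (LFC 1.35) and Il6ra (LFC 1.19) rose too.

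Among the falls, Socs3, a feedback inhibitor induced by cytokine signalling, had 193, 942 and 239 after PBS and 39.7, 73.3 and 49.3 after DEX (LFC -3.06, SE 0.53, edgeR FDR 0.00139). NaCl/PBS mouse 2 was far above the other PBS mice, and without it the LFC was -1.97. Tlr2, a receptor for bacterial lipoproteins, went from 67.6, 217 and 71.1 to 29, 18.8 and 20.1 (LFC -2.38, SE 0.53, edgeR FDR 0.00775), and -1.61 without that mouse. Tlr3, a sensor of double-stranded RNA, went from 163, 171 and 153 to 89.1, 63 and 60.4 (LFC -1.20). The NF-kB members Relb (LFC -1.96) and Nfkb1 (LFC -0.48) fell, and Rela did not pass (LFC 0.04). Nfkbie, an inhibitor of NF-kB like Nfkbia, fell as well (LFC -1.92), whereas Nfkbia rose.

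Of 48 cytokines, chemokines and adhesion molecules listed, 37 could be tested. Of these, 13 fell (35.1%, beside 7.15% of all tested genes) and 4 rose (10.8%, beside 6.50%). The median LFC was -0.72. Cxcl1 (chr5:91039094-91040974, plus strand), a neutrophil chemokine, had 260.38, 2446 and 109 after PBS and 23.6, 5.64 and 38.3 after DEX (LFC -5.39, SE 1.06, edgeR FDR 0.00363), the largest fall among genes with a mean of at least 100 normalized counts when all mice were included. All DEX mice lay below all PBS mice, as the choice of the gene required, but the PBS mice differed widely among themselves. Without mouse 2 the LFC of Cxcl1 was -3.05 (edgeR FDR 0.00442), smaller in size than those of Lhfpl2 (-3.39), Rnf186 (-3.36) and Efna1 (-3.31) in the same fit. Cxcl10, an interferon-induced chemokine, had 92.8, 246 and 57.6 after PBS and 11.8, 14.1 and 23.2 after DEX (LFC -2.99, SE 0.53, edgeR FDR 0.00174), with an LFC of -2.18 without the same mouse. Cxcl11 went from 120.12, 126 and 120.19 to 37.6, 17.9 and 20.1 (LFC -2.28), and here the PBS mice were alike, while 41.7% of its exon bases overlap another gene.

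Ccl2 and Il1b were called lower, both near the lower end of detection after DEX, with 35.3 ± 43.1 in NaCl/PBS and 0.313 ± 0.543 in NaCl/DEX mice for Ccl2 and 92.6 ± 104 in NaCl/PBS and 1.66 ± 1.47 in NaCl/DEX mice for Il1b (SD, n = 3). Their SD exceeded the mean among the PBS mice. Icam1, an adhesion molecule for leukocytes, fell by 2.17 on the log2 scale (edgeR FDR 0.00229). Against this direction, Gdf15, a stress cytokine, rose by an LFC of 1.84 (edgeR FDR 0.0147, and 0.0536 without NaCl/PBS mouse 2), Vcam1, another adhesion molecule, by 0.93, Ccl9 by 0.69 and Tgfb3 by 1.27. The number that rose was 1 without NaCl/PBS mouse 3 and 2 without NaCl/DEX mouse 1, NaCl/DEX mouse 2 or NaCl/PBS mouse 1, or with library size alone as the scaling.

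Of 42 interferon-stimulated and antigen presentation genes, 20 fell (47.6%, beside 7.15% of all tested genes) and 1 rose (2.38%, beside 6.50%). The median LFC was -0.56, and 7 of the 20 had an LFC below -1. Irf1 (chr11:53660812-53669200, plus strand), a transcription factor of the interferon response, had 934, 1060.4 and 781 after PBS and 142, 135 and 144 after DEX (LFC -2.72, SE 0.20, edgeR FDR 1.3e-06), with the 3 DEX mice within a narrow range. Its exons overlap another gene over 44.6% of their bases. Irgm2, a GTPase of cell-autonomous immunity, had 1410.5, 1617 and 1141 after PBS and 726, 556 and 614 after DEX (LFC -1.14, SE 0.18, edgeR FDR 0.000797), and Tap1, the peptide transporter of antigen presentation, 442, 435 and 394 after PBS and 181, 185 and 215 after DEX (LFC -1.13, SE 0.14, edgeR FDR 7.97e-05). Ciita, the master regulator of MHC class II, fell by 1.86 on the log2 scale, and the class II genes H2-Aa, H2-Eb1 and Cd74 had LFCs of -0.76, -0.77 and -0.58.

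Usp18, an enzyme that removes ISG15 and restrains interferon signalling, was the 1 gene of this list that rose, with 327, 291 and 319.95 after PBS and 940.32, 733 and 752 after DEX (LFC 1.37, SE 0.17, edgeR FDR 0.000116). The size of the list's response depended on the mice included: 10 genes fell without NaCl/DEX mouse 2 or NaCl/PBS mouse 1, 11 without NaCl/PBS mouse 2, and 24 in a fit of the 6 NaCl libraries alone.

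Because these genes are also expressed by immune cells, markers of other liver cells were read beside them. In bulk liver RNA, fewer cells of a type and less RNA per cell cannot be told apart. Of 14 Kupffer cell and monocyte markers, 0 were called in either direction, with a median LFC of -0.24 and summed levels of 619 to 702 CPM in PBS and 553 to 643 in DEX mice. Neutrophil, T and NK cell and B cell markers were near the lower end of detection, with summed levels of 7.01 to 16.2, 8.17 to 9.10 and 7.08 to 22.4 CPM in PBS mice and 4.82 to 6.50, 4.07 to 8.51 and 5.80 to 8.23 in DEX mice. In each of these lists 1 marker fell: Csf3r of 8 tested, Cxcr6 of 9 and Ighd of 7. These are 12.5%, 11.1% and 14.3%, beside 7.15% of all tested genes. Their median LFCs were -1.01, -0.57 and -1.39, and their part in the falls of immune genes was not tested.

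Of the sinusoidal endothelial markers, Lyve1, a hyaluronan receptor, rose (252 ± 88.7 in NaCl/PBS and 892 ± 32.2 in NaCl/DEX mice, SD over n = 3, LFC 1.83), and Kdr (LFC -1.24) and Gpr182 (LFC -0.94) fell, while the other 8 of 11 did not pass and the median LFC was -0.21. The rise was 9.09% of the list, beside 6.50% of all tested genes, and the falls were 18.2%, beside 7.15%. Among 11 stellate cell and fibroblast markers 1 fell (Pdgfrb, 9.09%) and among 6 tested cholangiocyte markers 1 fell (Sox9, 16.7%). No marker of the 3 tested for mesothelial, 2 for acinar and 5 for erythroid cells passed the test in either direction. Of the 10 hepatocyte markers, which include Tat, 3 rose (30%, beside 6.50% of all tested genes) and 0 fell.

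The list of acute-phase and complement genes also holds coagulation genes such as Thbd and F3. Of its 41 tested members, 8 rose (19.5%, beside 6.50% of all tested genes). In this list 1 gene fell (2.44%, beside 7.15%), and the median LFC was 0.08. Lcn2, a siderophore-binding protein, had 1124, 3126 and 858 after PBS and 8331, 7432 and 4457 after DEX (LFC 1.99, SE 0.49, edgeR FDR 0.0143), with an LFC of 2.78 without NaCl/PBS mouse 2. Orm3, an acid glycoprotein, went from 235, 377 and 116 to 937, 704 and 576 (LFC 1.61), and Thbd, the thrombin receptor thrombomodulin, from 84.2, 147 and 99 to 352, 567 and 452 (LFC 2.06, SE 0.28, edgeR FDR 0.000243). The major acute-phase genes Saa1, Saa2, Orm1, Hp and Crp had LFCs of 0.41, 0.50, 0.14, 0.65 and 0.46 and did not pass. Serpina3c, Serpina3h, Serpina3k and Serpina3m, protease inhibitors of 1 gene cluster whose reads may be shared, rose by LFCs of 5.02, 2.85, 1.01 and 0.97. Each of them is counted separately among the 8 genes that rose. F3, tissue factor, fell by 1.96 on the log2 scale.

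Of 42 growth arrest, cell cycle and apoptosis genes, 11 rose (26.2%, beside 6.50% of all tested genes) and 5 fell (11.9%, beside 7.15%). The median LFC was 0.17. Beside Cdkn1a and Ddit4, Bcl2l1, which encodes the survival protein BCL-XL, had 528, 558 and 560.34 after PBS and 3384, 3405 and 3522 after DEX (LFC 2.65, SE 0.15, edgeR FDR 9.44e-08). Bbc3, the pro-apoptotic PUMA, had 243, 149 and 143 after PBS and 75.1, 52.7 and 44.3 after DEX (LFC -1.64, SE 0.33, edgeR FDR 0.00394), and Pim1, a survival kinase, 309, 515 and 227 after PBS and 61.2, 86.5 and 85.6 after DEX (LFC -2.16, SE 0.39, edgeR FDR 0.00206). Trp53inp1 rose (1572 ± 154 in NaCl/PBS and 7891 ± 731 in NaCl/DEX mice, LFC 2.33), whereas Mdm2, Bax and Ccng1, other p53 targets, had LFCs of 0.37, 0.06 and 0.01 and did not pass. Without NaCl/DEX mouse 1, 3 genes fell.

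Of 60 nucleolar and ribosome biogenesis genes, 31 rose (51.7%, beside 6.50% of all tested genes) and 0 fell, with a median LFC of 0.45. Both the share and the median were below those of the well-known GR targets (73.3% and 1.47). The changes were small in size, with 6 LFCs above 1. Nolc1, a nucleolar phosphoprotein, had 295, 442 and 349 after PBS and 995, 852 and 875 after DEX (LFC 1.33, SE 0.17, edgeR FDR 0.000115), Nop58, a core protein of box C/D particles, 297, 385 and 259.86 after PBS and 713, 599.86 and 715 after DEX (LFC 1.11, SE 0.15, edgeR FDR 0.000257), and Ppan 158, 153 and 154 after PBS and 336, 324 and 321 after DEX (LFC 1.08, SE 0.12, edgeR FDR 5.95e-05). Myc, a known driver of ribosome biogenesis that is not in this list, rose as well (124 ± 57.9 in NaCl/PBS and 636 ± 15.5 in NaCl/DEX mice, SD over n = 3, LFC 2.37). Any link of Myc to the rises of this list was not tested. Between 22 and 30 of the 60 rose when a single mouse was left out.

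**Figure D3:**
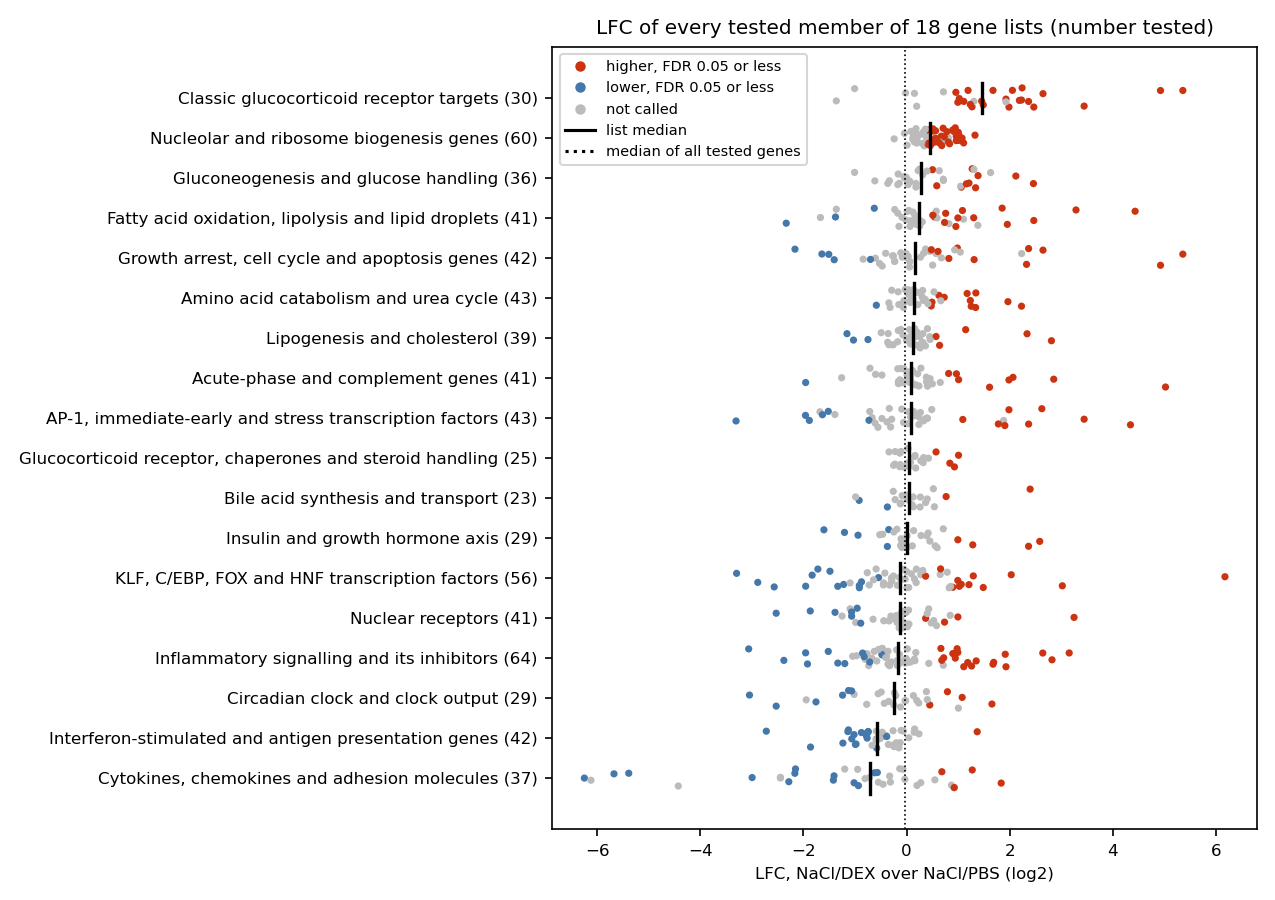
LFC (log2) of every tested member of 18 gene lists, 1 point a gene, red for a rise and blue for a fall that passed the test, with the list median as a black bar and the median of all tested genes as a dotted line. The medians run from -0.72 for cytokines, chemokines and adhesion molecules to 1.47 for the classic GR targets.

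Some of the largest falls lay outside these lists. Efna1, a membrane-bound ephrin ligand, had 672, 751 and 380.05 after PBS and 56.9, 63 and 38.3 after DEX (LFC -3.51, SE 0.35, edgeR FDR 1.97e-05), and Tnfaip2, a TNF-induced gene, 509, 611 and 443 after PBS and 68.7, 58.3 and 57.4 after DEX (LFC -3.08, SE 0.19, edgeR FDR 2.37e-07). Osgin1, an oxidative stress-induced growth inhibitor, had 3153, 3632 and 2260 after PBS and 221, 385 and 365 after DEX (LFC -3.22, SE 0.39, edgeR FDR 8.42e-05), and Arrdc3, an alpha-arrestin, 3326, 2574 and 2129.6 after PBS and 372, 232 and 393 after DEX (LFC -3.01, SE 0.36, edgeR FDR 7.88e-05). All 4 fell in every DEX mouse below every PBS mouse. The choice of the genes required this, and a mean of at least 100 normalized counts after PBS. Rnf186, a ubiquitin ligase, went from 124, 111 and 78.7 to 12.9, 9.4 and 7.05 (LFC -3.41) and Lhfpl2 from 283, 207 and 255 to 46.2, 17.9 and 13.1 (LFC -3.28).

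The same DEX stimulation in mice given FeSO4 provided the closest comparison, with no mouse in common. There, edgeR called 0 genes at an FDR of 0.05 or less, with 900 genes at an unadjusted p under 0.05 and 9 calls by DESeq2. The 2 responses differed for 857 genes (6.18% of those tested), and for 787 of the 1892 genes called by DEX in NaCl mice. Those 1892 were selected on the response in NaCl mice, which is part of the difference tested, so a high number among them was favoured in advance. Over all tested genes, the number that differed was 537 without NaCl/PBS mouse 1, 545 without NaCl/PBS mouse 3 and 1459 without a filter on low counts. Among the 20 genes described whatever their values, the difference passed for 8. Cdkn1a had an LFC of -0.08 in FeSO4 mice (difference 5.44, SE 0.27, edgeR FDR 1.58e-07) and Tat one of 0.03 (difference 2.20, SE 0.26, edgeR FDR 0.000248). Without DEX, the FeSO4 mice had 9851, 8603 and 9167 normalized counts of Cdkn1a, all above the NaCl/DEX mice. For Tat they had 119070, 124470 and 87754, beside 87816 to 103190 in the NaCl/DEX mice. Ddit4 had the largest LFC in FeSO4 mice of the 20, at 1.38, and it too was below that in NaCl mice (difference 3.55, SE 0.31, edgeR FDR 1.86e-05), from FeSO4/PBS values of 875, 1138 and 708, all above the NaCl/PBS mice. Igfbp1, Cebpd, Mt2, Zbtb16 and Angptl4 rose in NaCl mice, but their difference between the responses did not pass, with edgeR FDRs between 0.055 and 0.28.

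**Figure D4:**
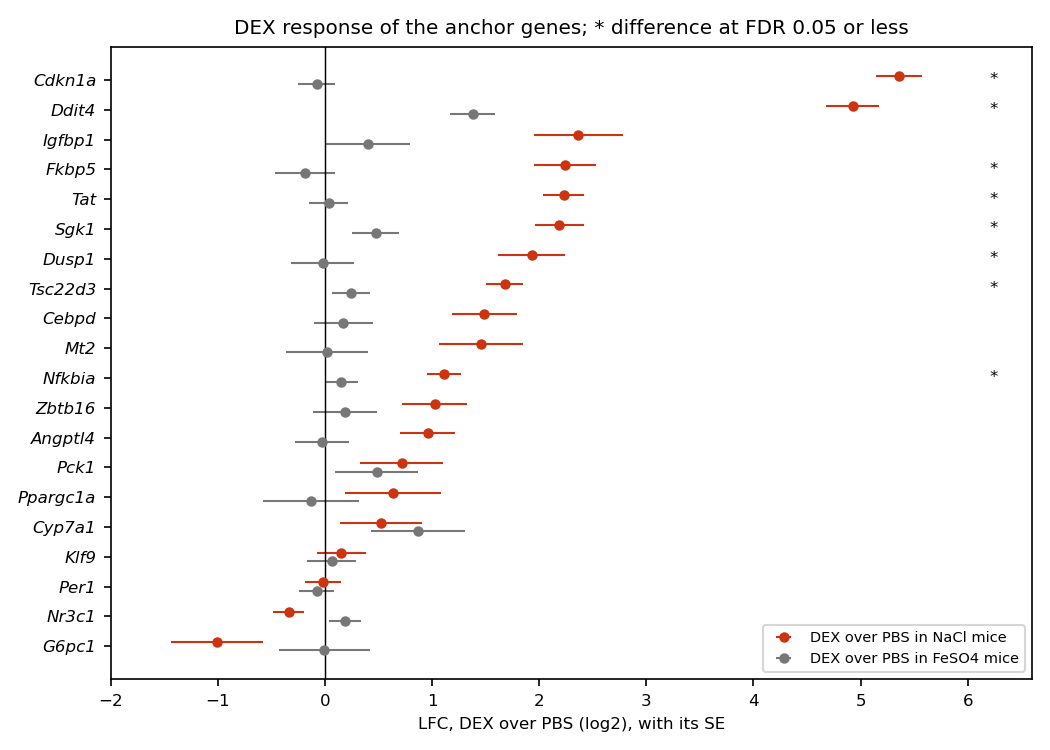
LFC of DEX over PBS (log2) with its SE for the 20 genes described whatever their values, in NaCl mice (red) and FeSO4 mice (grey), 3 mice per group. Asterisks mark the 8 genes whose responses differed past the test's threshold, and Ddit4 is the grey point farthest above 0.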

How the data were processed

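Stranded mRNA libraries of total liver RNA were sequenced as single-end reads. According to the sample records and the paper, the authors used FastQC, STAR 2.7.10b and the mm39 build, and deposited whole-number counts for 55414 Ensembl genes without normalization. The strand setting of the counting is not given in the sources used here, so overlapping genes are uncertain. Symbols came from GENCODE vM39 (54749 genes matched), a later release than the authors' annotation.

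The software was edgeR 4.0.16 with limma 3.58.1 on R 4.3.3, and DESeq2 1.42.0 as an alternative. The 12 libraries were fitted together with edgeR's quasi-likelihood method, 1 mean for each group, after filterByExpr (13857 genes) and TMM scaling, with Benjamini-Hochberg adjustment of p-values (FDR). The biological coefficient of variation was 0.169, the prior degrees of freedom 5.93 and the LFC prior count 0.125. Normalized counts refer to the mean effective library size of 19810818, and CPM to TMM-scaled counts. The SE of an LFC was derived from the F statistic. Precision is limited by the 3 mice of a group more than by depth: the chi-square per gene between mice of the same group was 24.6 to 34.9, well above sampling noise. The code was tested on simulated data.

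The genes named were 20 chosen whatever their values, the 10 largest rises and 10 largest falls, and up to 3 genes per list and direction, with an FDR of 0.05 or less, no overlap between groups and a mean of at least 100 normalized counts in the higher group, Rik and Gm genes left out. Other genes were named after their values were seen. Some genes are not reported here. The genes, the 18 lists and the tests were chosen with earlier results of these data known. The lists have no test of their own. Alternatives were other scalings and filters, DESeq2, a replicate block, fits without 1 mouse or of the 6 NaCl libraries alone, and testing for an LFC beyond 1. Promoters were read from GRCm39.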

Additional observations from a re-analysis of the deposited data

Results flagged for a closer look

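The difference between the DEX responses in NaCl and FeSO4 mice passed edgeR's quasi-likelihood test at an FDR of 0.05 or less for 857 genes, and this test of the difference itself is what singles out the genes below. Of the 20 genes described whatever their values, 8 passed it, each with a larger LFC in NaCl mice. The difference on the log2 scale, NaCl minus FeSO4, was 5.44 for Cdkn1a, 3.55 for Ddit4, 2.43 for Fkbp5, 2.20 for Tat, 1.95 for Dusp1, 1.72 for Sgk1, 1.44 for Tsc22d3 and 0.96 for Nfkbia. Groups of 3 mice are too small for a test of single outlying mice.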

How the results depend on the processing

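With library size alone as the scaling, 1776 genes were lower after DEX in place of 991, and the median of all tested genes moved as given above. The medians of 7 of the 18 gene lists, all between 0.01 and 0.14 in the main setting, then turned negative, namely those of the GR machinery, amino acid breakdown, insulin and growth hormone, lipogenesis and cholesterol, bile acid, AP-1 and stress, and acute-phase genes. A test against an LFC of 1 left 130 genes higher and 68 lower, by construction a stricter question. Without a filter on low counts, the DEX responses of NaCl and FeSO4 mice differed for 1459 genes, and Pck1 and G6pc1 passed with edgeR FDRs of 1.83e-05 and 2.32e-10, and the cause was not tested. Leaving out 1 mouse at a time gave 606 to 784 genes higher and 578 to 722 lower, 329 to 452 and 346 to 423 with an LFC beyond 1, and 537 to 1018 with a difference between the responses. DESeq2 gave 1158 higher and 1065 lower, and the fit of the 6 NaCl libraries alone 1338 and 1421. For the 20 genes described whatever their values, 240 of 260 alternative values kept the side of the threshold, 11 lost a call (Zbtb16, Mt2 and Angptl4), 9 gained one (Pck1, G6pc1, Nr3c1, Ppargc1a and Cyp7a1), and 0 reversed a call. Depth limits what can be said of genes with a few reads, such as Ccl2 and Ebf3.

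Mice with the same replicate number were compared across groups: their deviations correlated at 0.15, 0.16 and 0.07 for numbers 1, 2 and 3. Each PBS mouse correlated best with the DEX mouse of its own number. On the second principal component (11.7% of the variance), mice 1, 2 and 3 lay at 14.3, -17.7 and 1.74 after PBS. After DEX they lay at 20.1, -16.2 and -2.17. The labels do not say whether the numbers mark pairs or a batch, and the main fit treats the mice as unpaired. With the replicate number as a block, 846 genes were higher and 908 lower, 412 and 459 of them with an LFC beyond 1, and 729 differed between the responses. The alternatives that give list counts without NaCl/PBS mouse 2 or in the 6 NaCl libraries alone were added after the data had been seen.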
